A study of Mus musculus with 2 samples.

Results

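The Ms4a family was followed through 2 single-cell libraries of cells sorted from lung carcinoma tumors, by 8 of its genes, Ms4a1, Ms4a4a, Ms4a4b, Ms4a4c, Ms4a6b, Ms4a6c, Ms4a6d and Ms4a7. They were taken by symbol and are 8 of the 19 Ms4a genes among 31053 features, so no measured value chose them. Ms4a1, which encodes the B-cell antigen CD20, lay almost wholly in B-like cells and in a cluster led by immunoglobulin genes, and Ms4a4b lay mainly in T-like and NK-like cells. Ms4a4a, Ms4a4c, Ms4a6c and Ms4a6d were highest in monocyte-like cells, Ms4a7 in macrophage-like or monocyte-like cells, and Ms4a6b was high in both T-like and monocyte-like cells. In neutrophil-like cells, the intended population of the sort, each of the 8 genes stayed at or under 28.5 CPM, which is UMIs of a gene (molecules counted by their barcodes) per 1000000 UMIs.

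Ms4a proteins are small tetraspan proteins of the cell membrane that are thought to act beside immune receptors, and their genes stand in a row on 1 chromosome. CD20 on B cells is the target of therapeutic antibodies, Ms4a2 is the beta chain of the high-affinity IgE receptor of mast cells and basophils, and Ms4a4b and Ms4a6b are known from T cells, where Ms4a4b can associate with the costimulatory receptor GITR. Ms4a4a, Ms4a6d and Ms4a7 are known from monocytes and macrophages, and the human MS4A locus is linked to the level of soluble TREM2, a lipid receptor of macrophages and microglia.

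CD11b+Ly6G+ tumor-associated neutrophils (TANs) were sorted from tumors of LLC, a mouse Lewis lung carcinoma line, that had been inoculated under the skin of C57BL/6 mice (C57BL/6 J background in the methods). The Smad3-WT library came from Smad3+/+ mice, and the Smad3-KO library came from Smad3-/- mice, in which the transcription factor Smad3, a mediator of TGF-β signals, is disrupted in every tissue. Each library pooled 8 tumors of mice that were 8 to 12 weeks old, and both were made with a 5′ kit of the Chromium system. The question the pair of libraries addressed was how loss of Smad3 in the host changes neutrophils of the tumor. With 1 library per genotype there is no replicate error, no test of genotype was possible, and every interval given here, all at 95%, covers counting error only.

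The Smad3-WT library held 23951400 UMIs in 4116 cell barcodes, and the Smad3-KO library held 4214290 in 2514. Of these, 3520 and 2433 cells passed the quality filter, with medians of 1318.5 and 1199 UMIs. The upper limit of 20000 UMIs removed 382 Smad3-WT barcodes and 0 Smad3-KO barcodes. The libraries shared 73 barcode sequences, and without those cells all 45 ratios between libraries that were recomputed moved by factors of 0.674 to 1.35, less than their counting error. UMIs of Smad3 itself numbered 303 in the library labelled Smad3-WT and 323 in the library labelled Smad3-KO, or 12.7 CPM (11.3 to 14.2) and 76.6 CPM (68.5 to 85.5). The altered exons lie late in the gene and 5′ tags lie toward its start, so these UMIs check nothing about the genotype.

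Cells were clustered without any Ms4a gene and named by marker genes, so the classes are "like" names rebuilt here and not the authors' own assignment. Neutrophil-like cells, with S100a8 and S100a9 among their markers, were 1817 of the Smad3-WT cells (51.6%) and 1086 of the Smad3-KO cells (44.6%). Most of them lay in different clusters: cluster 1, led by Mmp9 and Il1r2, held 1437 Smad3-WT and 121 Smad3-KO cells, and cluster 2, led by Il1a and Csf3, held 14 and 828. The other classes in the sort differed strongly between the libraries. Monocyte-like cells numbered 760 in Smad3-WT and 60 in Smad3-KO, macrophage-like cells 337 and 54, dendritic-like cells 94 and 112, T-like cells 44 and 455, B-like cells 2 and 527, fibroblast-like cells 47 and 61, carcinoma-like cells 401 and 31, and NK-like cells 17 and 5. A cluster of 1 Smad3-WT and 42 Smad3-KO cells, led by Jchain, immunoglobulin genes and Mzb1, kept no name because its leading genes held more plasma cell than B cell markers. The monocyte-like cluster showed 6 of 6 monocyte markers and also 5 of 11 macrophage markers, and the 31 carcinoma-like cells of Smad3-KO had a median of only 641 UMIs, against 13152 in Smad3-WT.

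On the genome the 8 genes lie within 355 kb of chromosome 19 (GRCm38.p6, chr19:11249679-11604804). From the lower coordinate their order is Ms4a1, Ms4a7, Ms4a4a, Ms4a4c, Ms4a4b, Ms4a6c, Ms4a6b and Ms4a6d, and the first 2 and the last are on the minus strand. Genes highest in different classes can thus be neighbors: the T-like gene Ms4a4b at chr19:11443558-11463549 follows the monocyte-like gene Ms4a4c at chr19:11404717-11427246. The monocyte-like gene Ms4a6c at chr19:11469353-11487182 comes before Ms4a6b at chr19:11518559-11530403, which was high in both T-like and monocyte-like cells. The stretches before transcription starts of these genes, as RefSeq's promoter entries give them, are shown since both pairs, in spite of their different levels by class, share sequence there. They are 120 bases of the plus strand, read 5′ to 3′ from RefSeq, with the longest run that a gene shares with its paralog in capitals, Ms4a4b with Ms4a4c and Ms4a6c with Ms4a6b. The starts used for Ms4a4c and Ms4a6c lie inside the gene bounds given above, so these stretches precede a start other than the outermost one.
Ms4a4b, chr19:11443433-11443552: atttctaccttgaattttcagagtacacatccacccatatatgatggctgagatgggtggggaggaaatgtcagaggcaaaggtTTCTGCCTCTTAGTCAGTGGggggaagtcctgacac
Ms4a4c, chr19:11407541-11407660: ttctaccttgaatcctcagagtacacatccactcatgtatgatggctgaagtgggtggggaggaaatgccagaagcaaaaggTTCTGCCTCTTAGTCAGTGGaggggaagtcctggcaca
Ms4a6c, chr19:11469246-11469365: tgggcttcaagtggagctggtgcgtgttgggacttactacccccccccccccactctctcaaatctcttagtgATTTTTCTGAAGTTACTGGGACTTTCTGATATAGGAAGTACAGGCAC

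The run shared by Ms4a4b and Ms4a4c was 20 bases long and began 41 and 38 bases before the starts. The run shared by Ms4a6b and Ms4a6c was 48 bases long, of which 47 are shown, and it began 118 and 49 bases before the starts. No other pair among Ms4a4a, Ms4a4b, Ms4a4c, Ms4a6b and Ms4a6c shared more than 9 bases of the 250 compared. Of 4 short motifs searched on both strands in these 250 bases, the interferon-response letters GAAA, any 2 bases and GAAA again occurred in 0 of 7 promoter entries of the members and in 2.98% of 32851 entries of the genome, and the STAT letters TTCNNNGAA in 0 of 7 and in 7.02%. The ETS-type letters GAGGAA occurred in 2 of 7, those of Ms4a4b and Ms4a4c (23.3% of all entries), and GGAAGT in 5 of 7 (19.7%). RefSeq held promoter entries for 6 of the 8 members, all but Ms4a1 and Ms4a6d, and Ms4a7 had 2. A match, or its absence from these 250 bases, is a description of the letters and not of binding.

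Near-identical paralogs can take each other's reads. In the first 500 bases of the transcripts, where 5′ tags lie, windows of 100 bases that recur in another gene were found for Ms4a4c alone, at 3.6% of its windows, shared with Ms4a4b. Windows of 30 bases recurred more often, at 28.3% for Ms4a4c, 22.6% for Ms4a6b, 22.4% for Ms4a6c, 11.9% for Ms4a6d, 5.89% for Ms4a4b and 0% for Ms4a1, Ms4a4a and Ms4a7. The levels of the first 5 of these genes are therefore less certain than those of the other 3.

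Summed over all cells kept, the members moved in opposite directions between the libraries. Among all 12612 genes with at least 20 UMIs, 16.3% were at least 2-fold higher and 15.4% at least 2-fold lower in Smad3-KO, and of the 8 members 2 were past 2-fold higher and 3 past 2-fold lower. Ms4a1 stood at 0.164 CPM in Smad3-WT (2 UMIs) and 196 CPM in Smad3-KO (813 UMIs), a ratio of 1194 with an interval of 329 to 9873. Ms4a4b stood at 18.6 and 138 CPM, a ratio of 7.41 (6.34 to 8.68). These are the members of B-like and T-like cells, the classes with more cells in Smad3-KO.

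Ms4a4a stood at 270 CPM in Smad3-WT and 47.3 CPM in Smad3-KO, a ratio of 0.175 (0.151 to 0.202). Ms4a6d stood at 210 and 41.7 CPM (0.198, interval 0.169 to 0.231), and Ms4a6c at 243 and 82.0 CPM (0.337, interval 0.30 to 0.377). These 3 were highest in monocyte-like cells, of which Smad3-KO held few. Ms4a7 stood at 72.6 and 38.3 CPM (0.528, interval 0.443 to 0.626), and Ms4a4c at 136 and 80.5 CPM (0.591, interval 0.524 to 0.665). Ms4a6b differed least, at 123 and 149 CPM (1.21, interval 1.10 to 1.32). These ratios depended on the cells that entered the total. Without the quality filter Ms4a4c and Ms4a6b stood at 1.11 and 2.13, Ms4a6c at 0.605, no longer past 2-fold, Ms4a4a at 0.322, Ms4a6d at 0.362, Ms4a7 at 0.863 and Ms4a4b at 13.7. Without carcinoma-like cells Ms4a6b stood at 0.757, and Ms4a4c and Ms4a7 were past 2-fold lower as well, at 0.366 and 0.343, with Ms4a4a at 0.110, Ms4a6c at 0.214, Ms4a6d at 0.127 and Ms4a4b at 4.49.

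The plot of UMI shares shows where each gene's UMIs lay. In Smad3-WT, monocyte-like and macrophage-like cells together held 82.7% to 89.4% of the UMIs of Ms4a4a, Ms4a4c, Ms4a6b, Ms4a6c, Ms4a6d and Ms4a7. In Smad3-KO they still held 75.5% of the Ms4a7 UMIs and 61.7% of the Ms4a4a UMIs, but 26.9% of those of Ms4a4c and 18.3% of those of Ms4a6b, where B-like cells with 45.8% and T-like cells with 63.0% held the largest shares. The library sums thus mix different cells.

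**Figure D1:**
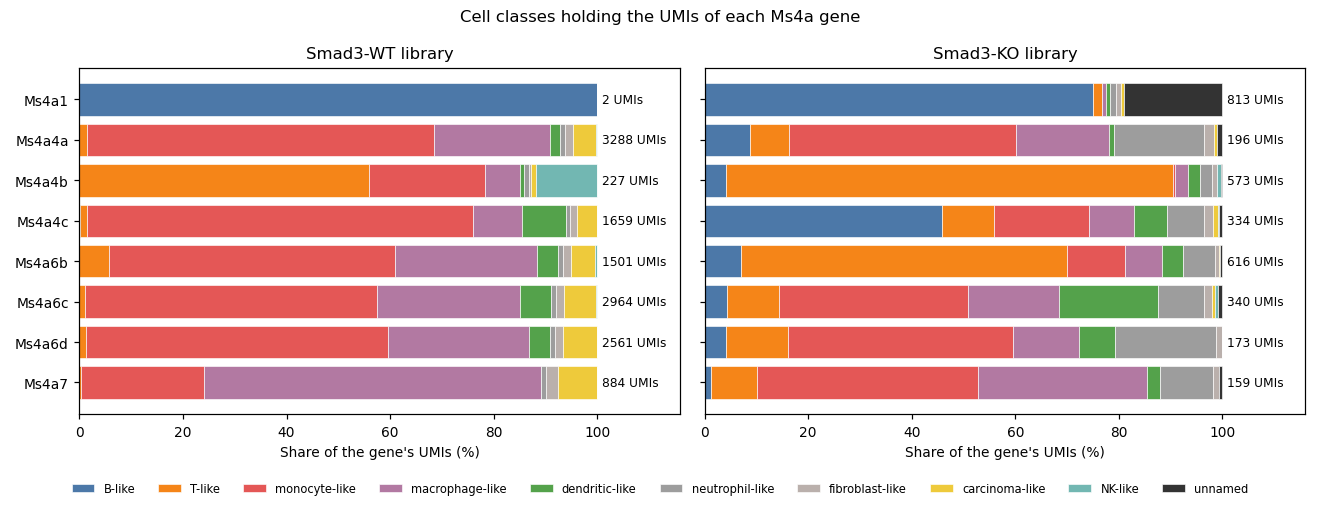
Stacked bars give the percent of each member's UMIs that fell in each cell class, with the Smad3-WT library in one panel and the Smad3-KO library in the other, and with the UMI total of each gene printed. The Ms4a1 bar of Smad3-WT rests on 2 UMIs, while in Smad3-KO the B-like class held 75.0% of 813.

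To set the share of a class apart from the level within it, the levels of each class in Smad3-WT were weighted by the UMIs of that class in Smad3-KO, over the 7 classes with at least 30 cells in both libraries. Class weights alone took Ms4a4b to 8.38 times its Smad3-WT level, and its ratio over the same classes was 10.3. They took Ms4a4a to 0.550, Ms4a6d to 0.609, Ms4a6c to 0.645 and Ms4a4c to 0.730, while the ratios were 0.205, 0.247, 0.411 and 0.408, so that levels within classes left further factors of 0.373, 0.405, 0.637 and 0.559. These factors sum over all 7 classes. In monocyte-like cells alone the ratios of these genes were 0.717, 0.926, 1.37 and 0.907, in the same order. In macrophage-like cells they were 0.644, 0.425, 0.987 and 2.49. In T-like, dendritic-like and fibroblast-like cells each was lower than in monocyte-like cells. B-like cells, with 2 in Smad3-WT, are outside the 7 classes. For Ms4a6b the weights gave 1.17 of a ratio of 1.45. For Ms4a7 the 2 parts had opposite directions: the weights alone gave 0.385, and the levels within classes were 1.75 times higher in Smad3-KO.

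**Figure D2:**
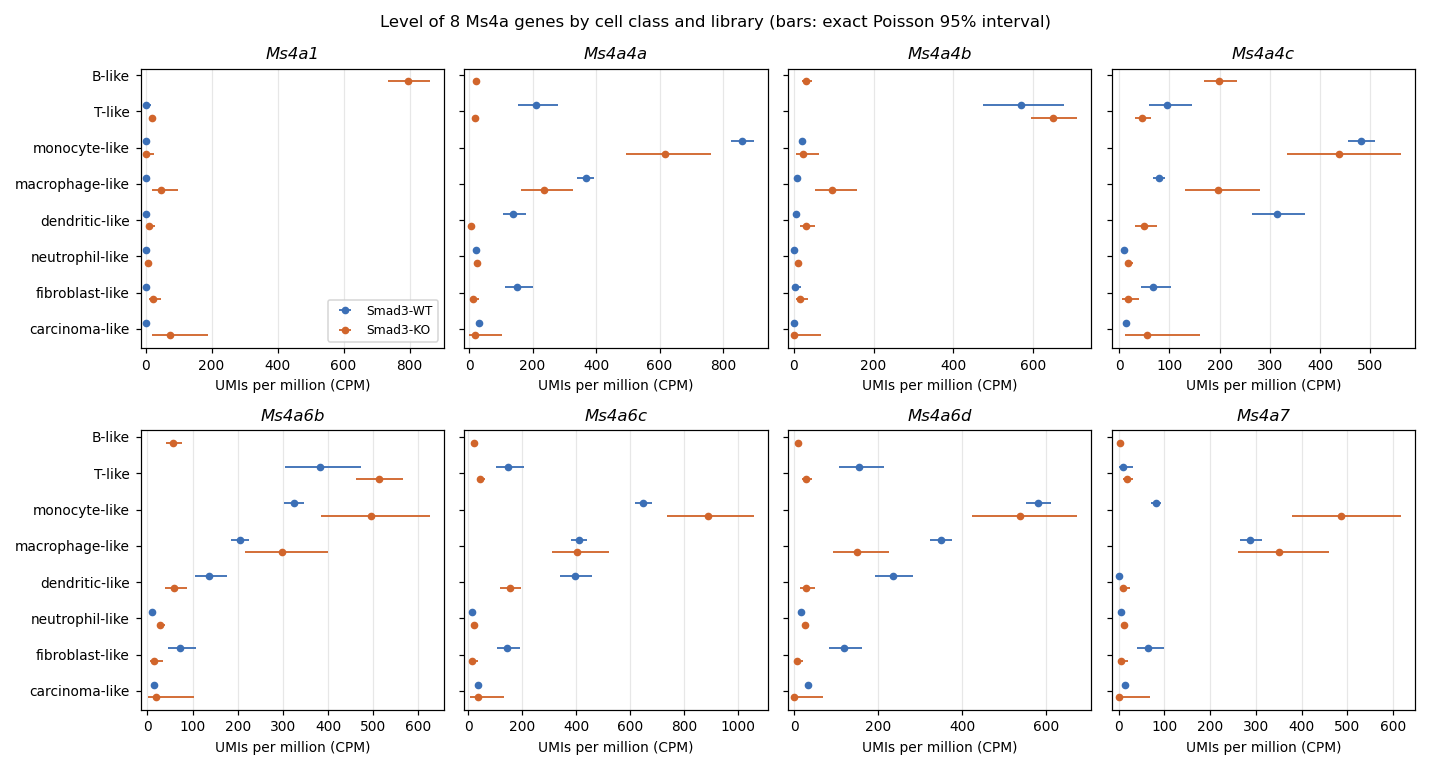
Each panel shows 1 member, with its level in CPM in 8 cell classes of the Smad3-WT library (blue) and the Smad3-KO library (orange), and bars are exact Poisson intervals at 95%. Ms4a1 peaks in B-like cells, Ms4a4b in T-like cells and the others in monocyte-like, macrophage-like or T-like cells. Every point of the neutrophil-like class lies near the left edge of its panel.

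Ms4a1, the CD20 gene, had 610 of its 813 Smad3-KO UMIs in B-like cells, at 796 CPM (734 to 861), and 155 in the unnamed immunoglobulin cluster, at 857 CPM (727 to 1003). These intervals overlap. The next class, carcinoma-like, had 4 UMIs at 73.4 CPM, 10.8-fold less (4.21 to 39.9), and below it macrophage-like (47.2), fibroblast-like (23.8), T-like (18.5), dendritic-like (11.8) and neutrophil-like cells (7.51) could not be told from their neighbors in the order by counting error. Monocyte-like cells had 0 UMIs in 60 cells, which allows a share of up to 5.0% of cells with a UMI. The summed B cell markers in these other Smad3-KO classes were between 123 and 662 CPM, against 8256 in B-like cells, and their part in the low Ms4a1 levels was not tested.

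After each cell was thinned to 500 UMIs, 34.2% of the B-like cells (30.1 to 38.4) and 42.9% of the unnamed cluster had an Ms4a1 UMI, against 60.9% and 85.7% before thinning. The median depths were 1202 and 3476 UMIs. Neutrophil-like cells, which should lack CD20, had 0.0921% (0.829% before thinning) at a median of 1016.5 UMIs. In Smad3-WT both Ms4a1 UMIs fell in 1 of the 2 B-like cells, and 0 of 1817 neutrophil-like cells had one, which allows a share of up to 0.165%.

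Of the genes around CD20, Cd79a and Cd79b, the signaling chains of the B cell receptor, stood at 2275 and 1212 CPM in the Smad3-KO B-like cells, Cd22 at 282 and the complement receptor Cr2 at 163. Across the 15 groups of library and class with at least 30 cells, genes among those with profiles most like that of Ms4a1, by Pearson's r of log2(CPM + 5), were Fcmr (0.956), Fcer2a (0.955), Ighd (0.945) and Iglc1 (0.944). The groups share 2 libraries, and r is given here and for the other members as a description only. With groups of at least 100 cells, 8 in number, 0 to 2 of each member's 5 most similar genes were the same.

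The T-like member Ms4a4b reached 571 CPM (476 to 679) in Smad3-WT T-like cells and 652 CPM (596 to 712) in Smad3-KO T-like cells, a ratio of 1.14 whose interval of 0.938 to 1.40 includes 1. Among classes of at least 30 cells it was 28.8-fold above the next in Smad3-WT, monocyte-like with 19.9 CPM, and 6.90-fold above the next in Smad3-KO, macrophage-like with 94.5 CPM. NK-like cells had 547 CPM in Smad3-WT (27 UMIs in 17 cells) and 595 CPM in Smad3-KO (5 UMIs in 5 cells). Within T-like and NK-like cells the intervals of both libraries overlap, and the ratio of 7.41 for the library sums stood beside 455 T-like cells in Smad3-KO and 44 in Smad3-WT.

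Ms4a6b was shared between the lymphoid and myeloid classes. In Smad3-WT it stood at 382 CPM (305 to 473) in T-like cells and 324 CPM (302 to 346) in monocyte-like cells, with a quotient of 1.18 (0.934 to 1.48), and in Smad3-KO at 512 (462 to 566) and 494 CPM (385 to 626), with a quotient of 1.04 (0.80 to 1.36). These neighbors did not differ beyond counting error in either library, and T-like cells came after monocyte-like cells in Smad3-WT when cells were thinned. Macrophage-like cells followed with 205 and 297 CPM, dendritic-like cells with 137 and 59.1, and neutrophil-like cells with 9.41 and 28.5.

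After thinning, 22.7% of Smad3-WT and 25.5% of Smad3-KO T-like cells had an Ms4a4b UMI (75.0% and 51.2% before thinning, at medians of 3690.5 and 1347 UMIs), against 0.0550% and 0.552% of neutrophil-like cells, at medians of 740 and 1016.5 UMIs. For Ms4a6b the thinned T-like shares were 11.4% and 23.5%, against 0.385% and 0.645% in neutrophil-like cells. The T-like ratio of Ms4a6b was 1.34 (1.06 to 1.72), and when the class was scaled by median-of-ratios size factors in place of total UMIs the T-like ratios of Ms4a6b and Ms4a4b became 1.81 and 1.55.

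Within Smad3-KO T-like cells, the 117 cells with a Cd8a or Cd8b1 UMI and no Cd4 UMI had 770 CPM of Ms4a4b (665 to 886), and the 76 cells with Cd4 only had 567 CPM (444 to 715). Ms4a6b stood at 564 (476 to 665) and 481 CPM (368 to 618) in them. The intervals overlap for both genes, which does not show that the levels are equal. In Smad3-WT the same split gave 708 CPM of Ms4a4b (585 to 850) in 26 cells with Cd8a or Cd8b1. The 6 Smad3-WT cells with Cd4 only had 106 CPM (28.9 to 271, 4 UMIs), and these intervals do not overlap. Ms4a6b stood at 434 (339 to 547) and 185 CPM (74.5 to 382) in these Smad3-WT cells, with intervals that overlap. In a finer clustering at resolution 2.0, a cluster led by the granzyme gene Gzma had 928 CPM of Ms4a4b (813 to 1055) and a cluster led by Lef1, a transcription factor of naive T cells, 503 CPM (445 to 567), both in Smad3-KO. Ms4a6b was also higher in the Gzma-led cluster, at 623 against 446 CPM.

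The genes most like Ms4a4b over the 15 groups were Skap1 (r = 0.966), Trbc1 (0.935), Cd3g (0.930), Il2rb (0.926) and Lat (0.921), all known from T cell signaling or from T and NK cells. Those most like Ms4a6b were Lpxn (0.877), Fam105a (0.875), Cd48 (0.872), Fermt3 (0.868) and Evl (0.866). Ms4a4b and Ms4a6b resembled each other at r = 0.684.

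Other members were also counted in T-like cells. Of the 6 members with at least 20 UMIs there, 4 were at least 2-fold lower in Smad3-KO, against a background of 13% of 5713 genes, and 0 were 2-fold higher, against 14%. The 4 were Ms4a4a, 211 and 19.8 CPM (ratio 0.0937, interval 0.0487 to 0.171), Ms4a6d, 153 and 27.7 CPM (0.181), Ms4a6c, 148 and 44.9 CPM (0.302), and Ms4a4c, 94.4 and 44.9 CPM (0.475), which was no longer past 2-fold under 8 alternatives, at 0.534 to 0.643. Ms4a4a, with 47 and 15 UMIs, passed the limit of 20 UMIs through Smad3-WT. Ms4a6d (34 and 21 UMIs), Ms4a6c (33 and 34) and Ms4a4c (21 and 34) had at least 20 in each library. Summed macrophage markers in T-like cells were 1794 CPM in Smad3-WT and 391 in Smad3-KO, and summed monocyte markers 1470 and 568. In Smad3-WT T-like cells these 4 members had 0.196 to 0.264 times their monocyte-like levels, while Ms4a6b had 1.18 times and Ms4a4b 28.8 times. The 6 monocyte markers had quotients of 0.0558 to 0.942 there, with a median of 0.274. In Smad3-KO the median quotient was 0.0511 for 6 members and 0.133 for 4 monocyte markers. The part of monocyte or macrophage RNA in the 4 lower members was not tested.

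**Figure D3:**
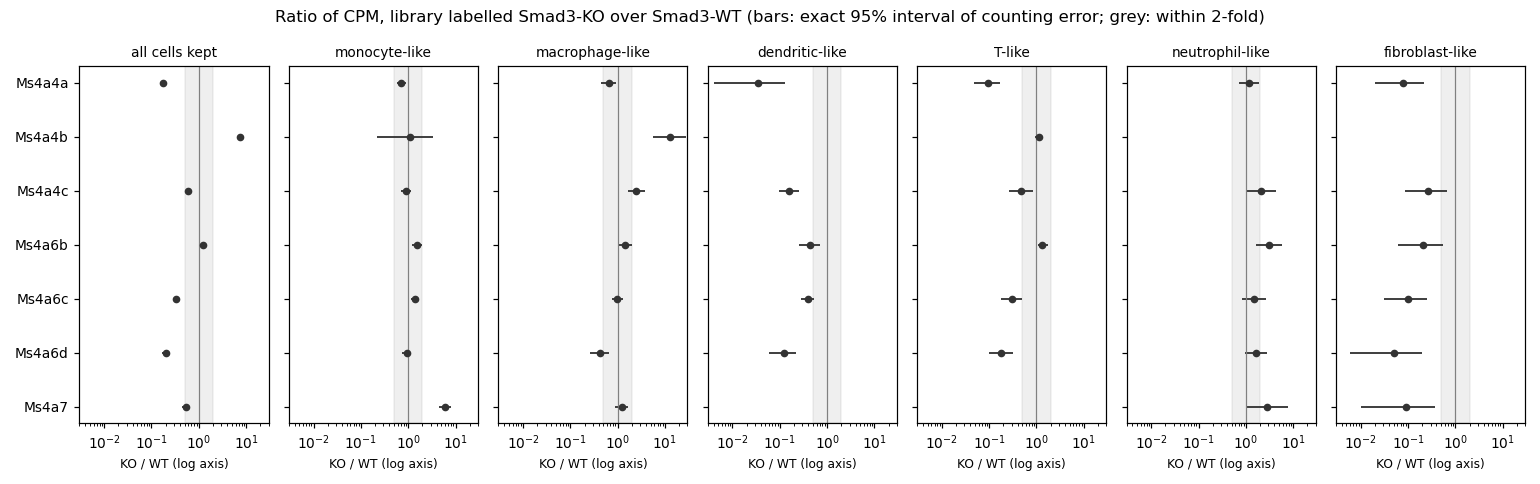
Points show the ratio of Smad3-KO over Smad3-WT CPM on a log axis for 7 members, without Ms4a1, in all cells kept and in 6 cell classes where the gene had at least 20 UMIs, with exact 95% intervals from the split of UMIs and a gray band for less than 2-fold. Points of monocyte-like cells lie within the band except for Ms4a7 at 5.96, and the 5 points of dendritic-like and 6 points of fibroblast-like cells lie below it.

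The monocyte and macrophage members come next. Ms4a4a, a marker of alternatively activated macrophages in humans, stood at 859 CPM (824 to 896) in Smad3-WT monocyte-like cells and 616 CPM (493 to 761) in Smad3-KO. Macrophage-like cells followed at 367 (341 to 394) and 236 CPM (165 to 329), 2.34-fold and 2.61-fold lower. The ratio of the libraries was 0.717 (0.571 to 0.889) in monocyte-like and 0.644 (0.445 to 0.904) in macrophage-like cells, below 1 in both classes but within 2-fold. With 30 principal components the monocyte-like ratio was 1.06, and with thinned cells the macrophage-like ratio was 1.56.

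Ms4a6d, a myeloid member, had the same order of classes as Ms4a4a at its top, with 580 (551 to 610) and 537 CPM (423 to 673) in monocyte-like cells and 349 (324 to 376) and 148 CPM (93.1 to 225) in macrophage-like cells. The monocyte-like ratio was 0.926 (0.724 to 1.17) and the macrophage-like ratio 0.425 (0.265 to 0.649), which became 0.635 at resolution 0.5, 0.533 at resolution 2.0 and 0.255 after thinning. At resolution 0.5 the macrophage-like class took in the monocyte-like cells and held 1086 Smad3-WT and 106 Smad3-KO cells. Ms4a6c stood at 650 (619 to 682) and 888 CPM (739 to 1059) in monocyte-like cells, a ratio of 1.37 (1.13 to 1.64), and at 410 and 405 CPM in macrophage-like cells, 0.987 (0.746 to 1.28). When cells were thinned, these ratios of Ms4a6c were 0.764 and 0.405, and the monocyte-like mean over cells gave 1.0, so neither direction was stable. In Smad3-WT the Ms4a6c level in dendritic-like cells, 395 CPM, was not told from the macrophage-like level (quotient 1.04, interval 0.882 to 1.23), whereas in Smad3-KO it was 154 CPM, 2.63-fold below.

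Ms4a4c, a paralog of Ms4a4b, was the member with the most varied order. Monocyte-like cells led with 482 (455 to 509) and 437 CPM (334 to 561), a ratio of 0.907 (0.690 to 1.17). The second class was dendritic-like in Smad3-WT, with 313 CPM (264 to 369), and B-like in Smad3-KO, with 200 CPM (169 to 234, 153 UMIs) beside macrophage-like cells with 196 CPM (131 to 281). Macrophage-like cells of Smad3-WT had 78.4 CPM (66.7 to 91.7), so that their ratio was 2.49 (1.62 to 3.73). That ratio was under 2 as a mean over cells (1.85), at resolution 2.0 (1.70) and after thinning (1.44). It was 1.02 at resolution 0.5, where the class took in the monocyte-like cells. After thinning, 8.16% of the Smad3-KO B-like cells had an Ms4a4c UMI (22.4% before), against 0.368% of the neutrophil-like cells. The immunoglobulin cluster held 2 Ms4a4c UMIs, at 11.1 CPM.

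Ms4a7 is known from macrophages. In Smad3-WT it was 3.53-fold higher (3.01 to 4.15) in macrophage-like cells, at 288 CPM (265 to 313), than in monocyte-like cells, at 81.8 CPM (71.1 to 93.6). In Smad3-KO monocyte-like cells had 487 CPM (378 to 618, 68 UMIs) and macrophage-like cells 351 CPM (262 to 460, 52 UMIs), a quotient of 1.39 that counting error does not part (0.953 to 2.03). The ratio of the libraries was 5.96 (4.46 to 7.87) in monocyte-like and 1.22 (0.898 to 1.62) in macrophage-like cells. At equal depth, 3.82% of Smad3-WT and 18.3% of Smad3-KO monocyte-like cells had an Ms4a7 UMI (13.6% and 38.3% before thinning), against 0.220% and 0.276% of neutrophil-like cells.

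Macrophage markers differed between the libraries too, in opposite directions in monocyte-like and macrophage-like cells. Their sum in monocyte-like cells was 6600 CPM in Smad3-WT and 9943 in Smad3-KO, while the monocyte marker sum was 3071 and 3173. Conversely, macrophage-like cells had macrophage marker sums of 15563 and 10374 CPM and monocyte marker sums of 981 and 2005. With both classes summed, Ms4a7 stood at 172 and 417 CPM, a ratio of 2.42 (1.98 to 2.94), and the ratios of Ms4a4a and Ms4a6d were below 1, at 0.653 (0.540 to 0.784) and 0.704 (0.568 to 0.863). The joint ratios of Ms4a4c, Ms4a6c and Ms4a6b were 1.03 (0.819 to 1.27), 1.17 (1.0 to 1.36) and 1.45 (1.18 to 1.75). The part of the mix of macrophage and monocyte cells in these values was not tested.

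Counted together, 1 of 7 members was at least 2-fold higher in monocyte-like cells of Smad3-KO (background 13.5% of 7709 genes) and 0 were 2-fold lower (16.7%). In macrophage-like cells 2 of 7 were higher (12.6% of 7737 genes) and 1 was lower (18.4%). The 2 were Ms4a4c and Ms4a4b, the second at 7.5 and 94.5 CPM (15 and 14 UMIs) in cells whose summed T cell markers were 45.5 and 547 CPM. The Ms4a4b ratio of 12.6 was 6.24 after thinning and 4.26 at resolution 0.5, where the class took in the monocyte-like cells. These shares rest on 7 genes in each class and on 60 and 54 Smad3-KO cells.

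A finer clustering of the Smad3-WT cells, also made without the members, split the myeloid cells. A cluster of 96 cells led by Mx1, with other interferon-response genes of the Ifit, Ifi and Phf11 families, had 1799 CPM of Ms4a4c (1656 to 1951), against 333 CPM (304 to 365) in the cluster of 453 cells led by Vcan and Ccr2, genes of inflammatory monocytes. Ms4a4a stood at 1781 and 737 CPM in these clusters, Ms4a6d at 1415 and 404, Ms4a6c at 1357 and 647, Ms4a6b at 798 and 283, and Ms4a7 at 160 and 37.0. All 6 were thus higher in the Mx1-led cluster.

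Among the macrophage-like clusters, Ms4a7 was highest in 148 cells led by Cbr2, Folr2 and Lyve1, genes of tissue-resident macrophages, at 432 CPM (391 to 476), and stood at 125 CPM in 197 cells led by Retnla and 135 CPM in 205 cells led by Ppbp. Ms4a4c was lowest in the Cbr2-led cluster, at 66.6 CPM, against 93.9 in the Retnla-led and 222 in the Ppbp-led cluster. Ms4a4a was lowest in the Retnla-led cluster, at 252 CPM, against 547 in the Cbr2-led and 685 in the Ppbp-led cluster. These cell numbers and values are of 1 library, Smad3-WT, so they have no replicate spread.

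**Figure D4:**
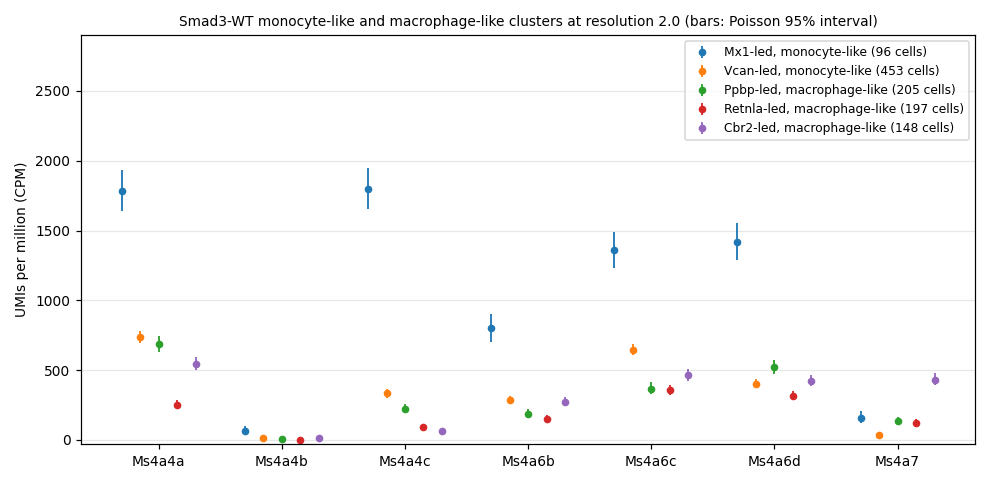
Points show the level in CPM of 7 members in the Smad3-WT cells of 5 finer myeloid clusters. Clusters are named by a leading gene with the numbers of those cells, and bars are exact Poisson intervals at 95%. The Mx1-led cluster of 96 cells lies above the Vcan-led cluster for Ms4a4c (1799 and 333 CPM), and the Cbr2-led cluster is highest for Ms4a7 (432 CPM).

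Over the 15 groups, the genes most like Ms4a4a were Fcgr1 (0.951), Trem2 (0.947), Msr1 (0.928), C3ar1 (0.924) and the member Ms4a6d (0.916), and those most like Ms4a6d were Fcgr1 (0.939), Cysltr1 (0.921), Trem2 (0.920), P2ry6 (0.919) and Rab5c (0.917). Fcgr1 and Msr1 encode the high-affinity IgG receptor and a scavenger receptor of macrophages. For Ms4a6c they included Tnfrsf11a (0.935), Aif1 (0.934), Ctss (0.929) and Ptpro (0.920). Ms4a6c and Ms4a6d resembled each other at r = 0.908. For Ms4a4c the list was Ifi209 (0.864), Phf11b (0.859), Dnase2a (0.854), Jarid2 (0.838) and Ctss (0.836), the first 2 of them interferon-response genes. For Ms4a7 it was Tpp1 (0.899), Apoe (0.894), Fam213b (0.889), F13a1 (0.885) and Lgmn (0.877), of which Tpp1 and Lgmn encode lysosomal proteases.

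In dendritic-like cells all 5 members with at least 20 UMIs were at least 2-fold lower in Smad3-KO, against a background of 8.54% of 5209 genes (and 11.9% for 2-fold higher). Their median ratio was 0.158, against 1.03 over those genes. Ms4a4a and Ms4a6d, with 2 and 12 UMIs in Smad3-KO, passed the limit of 20 UMIs through Smad3-WT. Ms4a4a stood at 139 and 4.73 CPM (63 and 2 UMIs, ratio 0.0340, interval 0.00403 to 0.128), Ms4a6d at 234 and 28.4 CPM (0.121, interval 0.0607 to 0.221) and Ms4a4c at 313 and 49.7 CPM (0.158, interval 0.0951 to 0.252). Ms4a6c stood at 395 and 154 CPM (0.389) and Ms4a6b at 137 and 59.1 CPM (0.432). The other 3 members had fewer UMIs and the opposite order, Ms4a4b with 2 and 13 UMIs, Ms4a1 with 0 and 5 and Ms4a7 with 0 and 4, where 0 of 94 cells allows a share of up to 3.19% of cells with a UMI.

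The composition of this class differed. Summed dendritic markers were alike at 2920 and 2871 CPM, while plasmacytoid dendritic markers were 236 CPM in Smad3-WT and 1414 in Smad3-KO, macrophage markers 801 and 568, and monocyte markers 1108 and 1362. The cluster that held 65 and 70 of these cells was led by Cd209a, Siglech and Cox6a2 and showed 5 of 6 plasmacytoid as well as 7 of 10 dendritic markers. Without the cells that held a plasmacytoid marker UMI, which left 80 and 69 cells, the ratios were 0.0243 for Ms4a4a, 0.0485 for Ms4a4c, 0.12 for Ms4a6d, 0.260 for Ms4a6c and 0.465 for Ms4a6b, all below 1. At resolution 2.0 the differences in the class were smaller for 4 of the 5, at 0.379 for Ms4a4a, 0.335 for Ms4a6d, 0.516 for Ms4a6c and 0.607 for Ms4a6b, the last 2 no longer past 2-fold, and Ms4a4c stood at 0.159. In the cluster then led by Cd209a, Dnase1l3 and Xcr1, of 64 and 58 cells, Ms4a4a stood at 146 and 82.3 CPM, Ms4a6c at 522 and 296 CPM and Ms4a4c at 361 and 65.8 CPM. With 30 principal components, which put 237 Smad3-WT and 165 Smad3-KO cells into the class, the ratios were 0.495 for Ms4a4a, 0.704 for Ms4a4c, 0.448 for Ms4a6d, 0.881 for Ms4a6c and 1.30 for Ms4a6b, so the size of the difference, and for Ms4a6b its direction, depended on where the class ended. When cells were thinned, the ratio of Ms4a6c was 0.959.

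In fibroblast-like cells 6 of 6 members with at least 20 UMIs were at least 2-fold lower in Smad3-KO (background 8.54% of 4566 genes, and 9.15% for 2-fold higher), with a median ratio of 0.0969 against 0.993 for those genes. The 6 had 21 to 49 UMIs in Smad3-WT and 2 to 6 in Smad3-KO. All of them thus passed the limit of 20 UMIs through Smad3-WT, so the count and the filter draw on the same UMIs. Ms4a4a stood at 151 and 11.9 CPM, Ms4a6c at 145 and 14.8, Ms4a6d at 117 and 5.94, Ms4a6b at 71.1 and 14.8, Ms4a4c at 68.0 and 17.8 and Ms4a7 at 64.9 and 5.94. As a mean over cells the ratio of Ms4a4c was 0.553, no longer past 2-fold. Ms4a4b, with 1 and 5 UMIs, and Ms4a1, with 0 and 8, had too few to be counted. Summed macrophage markers in these cells were 3869 CPM in Smad3-WT and 1247 in Smad3-KO, while summed monocyte markers were 1085 and 1113 CPM. The Smad3-WT levels of 5 of the 6 were 0.141 to 0.224 of those in monocyte-like cells and that of Ms4a7 was 0.794. The 11 macrophage markers had quotients of 0.224 to 2.43, with a median of 0.486. The part of macrophage or monocyte RNA in the 6 members was not tested. In carcinoma-like cells 1 of 6 members was at least 2-fold higher (background 27.3%) and 2 were lower (33.9%), shares that rest on the 31 shallow Smad3-KO cells. Each of these members had 0 to 3 UMIs in those cells.

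In neutrophil-like cells the members were near the bottom of their range. In Smad3-WT they lay between 0 CPM (Ms4a1) and 21.9 CPM (Ms4a4a), and in Smad3-KO between 7.51 CPM (Ms4a1) and 28.5 CPM (Ms4a6b). The 6 members with at least 20 UMIs had ratios of 1.16 to 3.03 and a median of 1.84, against a median of 0.799 over 6058 genes, and 3 of them were past 2-fold higher (background 7.84%) and 0 past 2-fold lower (17.4%). The 3 were Ms4a6b (15 and 38 UMIs, 3.03, interval 1.63 to 5.94), Ms4a7 (7 and 16 UMIs, 2.74, interval 1.07 to 7.87) and Ms4a4c (14 and 24 UMIs, 2.05, interval 1.02 to 4.29). Each of the 3 had fewer than 20 UMIs in Smad3-WT and reached the limit of 20 UMIs only with those of Smad3-KO. The count and the filter thus draw on the same UMIs. After thinning their ratios were 1.91, 1.67 and 1.67, and with 30 principal components 1.43, 1.69 and 1.47, all under 2-fold. Most of these cells lay in different clusters in the 2 libraries, as given above.

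At equal depth, 0.220% to 0.550% of Smad3-WT and 0.276% to 0.737% of Smad3-KO neutrophil-like cells had a UMI of Ms4a4a, Ms4a4c, Ms4a6b, Ms4a6c, Ms4a6d or Ms4a7. The neutrophil-like levels of these 6 were 0.0182 to 0.0537 of their monocyte-like levels in Smad3-WT and 0.0247 to 0.0577 in Smad3-KO. Summed monocyte markers in neutrophil-like cells were 374 and 822 CPM, macrophage markers 537 and 633 CPM and T cell markers 12.5 and 87.9 CPM. Neutrophil markers were 90402 and 111311. The monocyte list holds Ly6c2 and Chil3, which were also detected as markers of the neutrophil-like cluster led by Camp and Ngp. Whether the UMIs of the members came from neutrophils or from RNA of other cells was not tested.

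More than 1 member was found in some cells of most classes. After thinning to 500 UMIs, 63.0% of Smad3-WT and 55.0% of Smad3-KO monocyte-like cells held at least 1 of the 8 members, and 32.0% and 28.3% held at least 2. For macrophage-like cells the shares with at least 1 were 47.5% and 48.1%, and for T-like cells 40.9% and 44.4%. B-like cells of Smad3-KO had 41.9%. Dendritic-like cells had 40.4% and 11.6%, fibroblast-like cells 23.4% and 4.92%, and neutrophil-like cells 2.09% and 2.76%. At least 2 members were found in 18.7% and 16.7% of macrophage-like, 11.4% and 8.13% of T-like, 13.8% and 3.57% of dendritic-like, 2.13% and 1.64% of fibroblast-like and 0.165% and 0.645% of neutrophil-like cells, and in 5.12% of the B-like cells of Smad3-KO. The dendritic-like and fibroblast-like classes thus differed between the libraries by this measure too, and the monocyte-like, macrophage-like and T-like classes lay closer.

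The authors' own averages, in a deposited table of 13 clusters that pooled both libraries, gave a similar picture of the cells where each member was highest. These averages carry no error, and their clusters are described here by the marker genes that were highest in them. Ms4a1 was highest in cluster 8, which held the maximum of 11 of 11 B cell markers, at 1.12, and next in cluster 4 at 0.0644. Ms4a4b (0.904) and Ms4a6b (0.658) were highest in cluster 9, which held the maximum of 10 of 10 T and 8 of 8 NK markers, and Ms4a6b came second in cluster 5 at 0.440. Ms4a4a (1.22), Ms4a4c (0.755), Ms4a6c (0.915) and Ms4a6d (0.805) were highest in cluster 5, with 5 of 6 monocyte markers, and Ms4a7 was highest in cluster 12 (0.324), with 4 of 11 macrophage and 3 of 6 endothelial markers, and then in cluster 7 (0.289), with 5 of 11 macrophage markers. Cluster 10 held the maximum of 5 of 16 neutrophil markers, among them Ngp, Camp and Ltf. There Ms4a4a stood at 0.194, rank 4 of 13, Ms4a6c at 0.0906 and Ms4a6d at 0.0680. In clusters 1, 3 and 6, which also held neutrophil markers, Ms4a4a stood at 0.00574, 0.00838 and 0.00979. The cluster rebuilt here that Camp and Ngp lead had 2 Ms4a4a UMIs in 82 Smad3-KO cells, at 11.7 CPM. The authors' averages are on another scale than CPM, and these values were not converted.

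**Figure D5:**
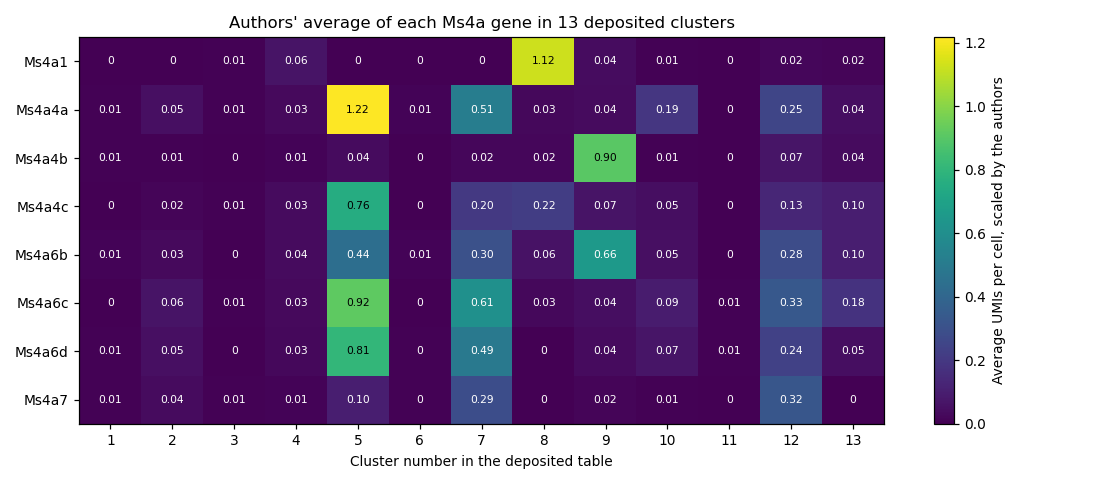
The heat map shows the authors' average of each member in 13 deposited clusters that pooled both libraries, on the authors' linear scale. Ms4a1 is bright in cluster 8 (1.12), Ms4a4b in cluster 9 (0.904) and Ms4a4a in cluster 5 (1.22).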

How the data were processed

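Cells were sorted and sequenced as 1 library per genotype. The authors made the deposited matrix with Cell Ranger 3.0.2, on the mm10 build per the submitters' notes, and it holds raw counts of UMIs per gene and barcode with no filter on cells. The deposited averages of 13 clusters are a signal per gene that the authors made from cells of both libraries, and deposited fold changes and p-values hold the authors' own comparisons and were not used. Barcodes ending in 1 and 2 were assigned to Smad3-KO and Smad3-WT because the authors' library averages equalled the summed UMIs over their total times 1311, the median UMIs per barcode, with largest deviations of 3.58e-08 (Smad3-WT) and 4.91e-09 (Smad3-KO). The tables held 0 columns of other samples.

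The quality filter asked for 200 or more genes, mitochondrial UMIs below 10% and a total between 500 and 20000 UMIs. Counts scaled to 10000 per cell and logged gave 2000 variable genes without any Ms4a gene, 100 principal components, 15 neighbors and Louvain clusters at resolution 1.0 (seed 1). A cluster took the class with most markers detected in at least 10% of its cells at 2 times the level elsewhere, and at least 3. The markers were of neutrophils, macrophages, monocytes, dendritic and plasmacytoid dendritic cells, T, NK, B and plasma cells, carcinoma, fibroblasts, endothelium, mast cells and eosinophils. No cluster took an endothelial, mast cell, eosinophil or plasma name. Scrublet marked 0 Smad3-WT and 3 Smad3-KO cells and so did not work, and no doublets were removed.

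UMIs were summed per library and class as CPM with exact Poisson intervals, ratios are quotients of CPM with exact intervals from the binomial split of UMIs, and shares of cells have exact Clopper-Pearson intervals. Shares were taken after thinning every cell to 500 UMIs. Class ratios needed 30 cells in each library, and counts past 2-fold needed 20 UMIs. A limit for 0 counts uses 3 counts. The script for the ratios was tested on simulated counts. Named genes were the 8 members, the marker genes, lists of other Ms4a genes, Tmem176a and Tmem176b, CD20-related, partner, interferon-stimulated and cycling genes, and the 5 genes most like each member among those with at least 200 UMIs. Some genes that this rule names are not reported here. Genes named as leading a cluster fall outside this rule and were chosen after their values were seen. The members and lists were chosen with earlier results of these data known. Positions and promoters are from RefSeq for GRCm38.p6, the build that mm10 names, and transcripts from GENCODE M21.

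Alternatives covered the cell filter (none, or the MetaCell filter of the methods with 20% mitochondrial UMIs and no upper limit), the mean over cells, size factors, totals without mitochondrial and ribosomal protein genes, thinning, 30 principal components, resolutions 0.5 and 2.0, another seed, doublet removal and the pseudocount. Leaving out shared barcodes, carcinoma-like cells and cells with plasmacytoid markers was added after the data were seen. Clustering ran in scanpy 1.11.5 with igraph 0.11.9 under Python 3.11.15, statistics in scipy 1.17.1 and numpy 2.4.6, tables in pandas 2.3.3, and plots in matplotlib 3.10.9.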

Additional observations from a re-analysis of the deposited data

Results flagged for a closer look

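For 4 members the ratio of Smad3-KO over Smad3-WT had an interval wholly above 1 in one class and wholly below 1 in another. Ms4a7, a macrophage member, stood at 5.96 in monocyte-like cells (4.46 to 7.87) and 0.0915 in fibroblast-like cells (0.0104 to 0.374). Ms4a4c stood at 2.49 in macrophage-like cells (1.62 to 3.73) and 0.158 in dendritic-like cells (0.0951 to 0.252). Ms4a6b stood at 3.03 in neutrophil-like cells (1.63 to 5.94) and 0.209 in fibroblast-like cells (0.0620 to 0.562). Ms4a6c stood at 1.37 in monocyte-like cells (1.13 to 1.64) and 0.102 in fibroblast-like cells (0.0317 to 0.256), but its monocyte-like ratio was 0.764 after thinning and 1.0 as a mean over cells. After thinning, the macrophage-like ratio of Ms4a4c was 1.44 and the neutrophil-like ratio of Ms4a6b 1.91. The intervals cover counting error only, and with 1 library per genotype the difference between classes was not tested. The low fibroblast-like ratios stood beside summed macrophage markers of 3869 CPM in Smad3-WT and 1247 CPM in Smad3-KO in those cells. Their summed monocyte markers were 1085 and 1113 CPM.

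The 382 Smad3-WT barcodes at or over 20000 UMIs, which the quality filter leaves out, also held UMIs of the family, 956 in all. Their summed level of the 8 members was 84.0 CPM (78.8 to 89.5), against 1075 CPM in the Smad3-WT cells kept, and the level of Ms4a6c alone was 23.5 CPM, against 243 CPM. Summed carcinoma markers in these barcodes were 1364 CPM, against 589 CPM in the cells kept.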

How the results depend on the processing

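No paired analysis was possible because each genotype has 1 library. The cause of the changes below was not tested, and the ratios are Smad3-KO over Smad3-WT.

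Without a quality filter and with the MetaCell filter, the library ratios were 0.322 and 0.323 for Ms4a4a, 13.7 and 13.7 for Ms4a4b, 1.11 and 1.11 for Ms4a4c, 2.13 and 2.14 for Ms4a6b, 0.605 and 0.602 for Ms4a6c, 0.362 and 0.364 for Ms4a6d, and 0.863 and 0.865 for Ms4a7. Without carcinoma-like cells they were 0.110 for Ms4a4a, 4.49 for Ms4a4b, 0.366 for Ms4a4c, 0.757 for Ms4a6b, 0.214 for Ms4a6c, 0.127 for Ms4a6d and 0.343 for Ms4a7. As a mean over cells they were 0.143 for Ms4a4a, 0.219 for Ms4a6c and 0.154 for Ms4a6d, and after thinning 0.453 for Ms4a4c, 0.211 for Ms4a6c and 0.141 for Ms4a6d. The directions of Ms4a4c and Ms4a6b thus depended on which cells entered the total.

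In monocyte-like cells thinning gave 0.615 for Ms4a4c and 0.764 for Ms4a6c, the mean over cells gave 1.0 for Ms4a6c, and 30 principal components gave 1.06 for Ms4a4a and 1.18 for Ms4a6d. In dendritic-like cells 30 principal components gave 0.704 for Ms4a4c and 1.30 for Ms4a6b, the second against 0.432, and leaving out cells with plasmacytoid markers gave 0.0485 for Ms4a4c. In T-like cells size factors gave 1.55 for Ms4a4b and 1.81 for Ms4a6b. In macrophage-like cells Ms4a7 had a ratio of 2.36 at resolution 0.5, where the class took in the monocyte-like cells, and 1.78 at resolution 2.0, against 1.22. T-like cells ranked 2 for Ms4a6b in Smad3-WT after thinning, in Smad3-WT at resolution 2.0, and in Smad3-KO with 30 principal components.

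Over all alternatives, 36 of 63 library ratios and 408 of 454 class ratios stayed within the counting interval of the reported value. The Ms4a7 ratio in monocyte-like cells was 5.22 to 7.34 over the 8 alternatives that gave one. No monocyte-like class was named without a quality filter, with the MetaCell filter or at resolution 0.5, and at resolution 2.0 it held 19 Smad3-KO cells, under the 30 needed. Classes of few cells limit the values, such as 60 monocyte-like and 54 macrophage-like cells in Smad3-KO and 44 T-like cells in Smad3-WT.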

Other observations

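Of the 11 other Ms4a genes among the features, 3 are described here by class or cluster. Ms4a4d, a paralog between Ms4a6b and Ms4a6d on the chromosome, stood at 64.9 CPM (40.2 to 99.2, 21 UMIs) in Smad3-WT and 98.0 CPM (67.4 to 138, 33 UMIs) in Smad3-KO fibroblast-like cells and had at most 1 UMI in each other class. Ms4a8a stood at 50.2 CPM in monocyte-like and 48.5 CPM in macrophage-like cells of Smad3-WT, and at 21.5 and 54 CPM in Smad3-KO (3 and 8 UMIs). Ms4a3, known from granulocyte and monocyte precursors, had 9 of its 11 Smad3-KO UMIs in the neutrophil-like cluster led by Camp, Ngp and Ltf, genes of immature neutrophils, at 52.5 CPM (24 to 99.7). Ms4a14 had 28 Smad3-WT and 7 Smad3-KO UMIs and Ms4a2 1 UMI, while Ms4a5, Ms4a10, Ms4a12, Ms4a13, Ms4a15 and Ms4a18 had 0. Of those with at least 20 UMIs in a class, Ms4a8a was past 2-fold lower in monocyte-like cells of Smad3-KO (background 16.7%). That rests on 3 Smad3-KO UMIs, and the intervals of Smad3-WT (41.9 to 59.7 CPM) and Smad3-KO (4.43 to 62.8 CPM) overlap.

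The tetraspan relatives Tmem176a and Tmem176b, known from dendritic cells and macrophages, went the other way from the Ms4a members of dendritic-like cells. Tmem176b stood at 232 CPM in Smad3-WT and 494 CPM in Smad3-KO dendritic-like cells, and at 135 and 452 CPM in macrophage-like cells, and Tmem176a at 177 and 307 CPM and at 61.0 and 351 CPM. Both were past 2-fold higher in macrophage-like and monocyte-like cells (2 of 2 in each, background 12.6% and 13.5%) and past 2-fold lower in T-like cells (2 of 2, background 13%).

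Of the partner genes with at least 20 UMIs, Trem2 stood at 313 and 94.5 CPM in macrophage-like cells of Smad3-WT and Smad3-KO and at 185 and 330 CPM in monocyte-like cells. Tnfrsf18, which encodes GITR, stood at 243 and 76.6 CPM in T-like cells, where Ms4a4b stood at 571 and 652 CPM. Fcer1g, the common gamma chain of Fc receptors, stood at 3203 and 3825 CPM in monocyte-like cells, and Fcer1a had 0 UMIs in each class with 30 cells.

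Interferon-stimulated genes were past 2-fold higher in Smad3-KO for 7 of 9 in macrophage-like cells (background 12.6%), such as Rsad2 at 85.4 and 270 CPM and Irf7 at 102 and 270 CPM, with 1 lower, Cxcl10 at 175 and 54 CPM. In monocyte-like cells 0 of 9 were higher (13.5%) and 1 was lower (16.7%), again Cxcl10, at 361 and 122 CPM, and in T-like cells 4 of 7 were higher (14%). Cycling genes were past 2-fold lower in 4 of 4 in T-like (background 13%) and 4 of 4 in macrophage-like cells (18.4%), such as Birc5 at 126 and 37.0 CPM and at 65.5 and 6.75 CPM, and higher in 3 of 4 in dendritic-like cells (11.9%). In macrophage-like cells the Smad3-KO level of Birc5 lies under 20.2 CPM, the level of 3 UMIs there. Birc5 thus passed the limit of 20 UMIs through Smad3-WT, so the count and the filter draw on the same UMIs. Of 8 genes of the CD20 list, only Cd74 and Cd40 had at least 20 UMIs in macrophage-like cells, and 0 of these 2 were past 2-fold. In monocyte-like cells both were past 2-fold higher (13.5%), Cd74 at 2963 and 7092 CPM and Cd40 at 17.9 and 86.0 CPM, and in T-like cells 2 of 3 were past 2-fold higher (14%) and Cd74 was lower (13%), at 3157 and 936 CPM. The limit of 20 UMIs holds for both libraries together, so a gene can meet it through Smad3-KO alone. Summed B cell markers in T-like cells were 67.4 CPM in Smad3-WT and 392 in Smad3-KO, beside 2 and 527 B-like cells in these libraries. The part of B cell RNA in the T-like count was not tested.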
